A study of Rattus norvegicus with 9 samples.

Results

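The 6 microRNAs (miRNAs) described here, miR-15b, miR-16, miR-195, miR-497, miR-103 and miR-107, form a family linked by a shared stretch near their 5′ ends. They were chosen by probe name: every rat probe for miR-15a, miR-15b, miR-16, miR-195, miR-497, miR-103 or miR-107 was taken, and 6 of the 334 miRNA probes on the array carried such a name. The series measured miRNAs on 1-colour arrays in the soleus, a slow postural muscle of the hindlimb. All groups were male Sprague-Dawley rats aged 6 months: 3 arrays came from rats hung by a tail device with their hindlimbs off the floor for 2 days, 3 from rats hung for 7 days, and 3 from control rats. The device was fitted under pentobarbital, and the labels do not say whether controls received it or the anaesthetic. Unloading of this kind makes the soleus waste. Nothing in the labels says that the 3 arrays of a group came from separate animals, and every p-value below rests on how far these arrays differ, which may be technical.

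A miRNA guides a silencing complex to messenger RNAs that pair with its seed, the bases that follow its first base. The miR-15, miR-16, miR-195 and miR-497 branch is known for targeting cyclins and other genes that drive the cell cycle, and the anti-apoptotic gene Bcl2. In mice, miR-195 and its relatives act in the withdrawal of heart muscle cells from the cell cycle, and miR-195 and miR-497 have been tied to quiescence of muscle stem cells. The miR-103 and miR-107 branch lies in introns of pantothenate kinase genes, which make coenzyme A, and is known in mice for lowering insulin sensitivity.

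The mature sequences show why the 6 are treated as 1 family and where the branches part. They were read from the array's own target column, all 6 matched a RefSeq mature miRNA of build GRCr8 exactly, and 2 relatives from the X chromosome are printed below them. Capitals mark the seed, bases 2 to 8.
miR-15b: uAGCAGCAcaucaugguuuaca
miR-16: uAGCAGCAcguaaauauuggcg
miR-195: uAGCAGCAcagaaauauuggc
miR-497: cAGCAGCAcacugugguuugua
miR-103: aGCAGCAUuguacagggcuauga
miR-107: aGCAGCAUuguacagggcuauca
miR-424: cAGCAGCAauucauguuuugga
miR-503: uAGCAGCGggaacaguacug

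The first 4 members and miR-424 have the same seed. In miR-103 and miR-107 the same letters, AGCAGCA, begin 1 base earlier, at base 1, so their seed is displaced by a base. Among the 334 target sequences, 7 (2.10%) held AGCAGCA within their first 8 bases, read on the miRNA strand. MiR-103 and miR-107 were identical at 22 of 23 bases and differed by G22C, counted from the 5′ end. MiR-16 and miR-195 shared 19 of 21 compared bases and differed by G10A and U11G, while miR-15b and miR-497 shared 16 of 22. Probes this alike may take up each other's target, so signals of miR-103 and miR-107, and of miR-16 and miR-195, cannot be treated as independent measurements.

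The genome places miR-15b beside miR-16 and miR-497 beside miR-195, while miR-103 and miR-107 lie on separate chromosomes. MiR-15b (chr2:155555197-155555218, plus strand) and miR-16 (chr2:155555343-155555364, plus strand) start 146 bases apart, within the bounds of Smc4, a condensin gene that acts in chromosome compaction. MiR-497 (chr10:55450172-55450193, plus strand) and miR-195 (chr10:55450509-55450529, plus strand) start 337 bases apart, and no RefSeq gene other than their own hairpins spans them. MiR-103 (chr3:138963278-138963300, plus strand) lies within the bounds of Pank2, and miR-107 (chr1:241750431-241750453, minus strand) within those of Pank1. The relatives miR-424 (chrX:137726198-137726219, minus strand; RefSeq names this sequence miR-322-5p) and miR-503 (chrX:137725899-137725921, minus strand; the array holds a shortened form) start 299 bases apart.

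All 6 members were detected on all 9 arrays. Detected means that more than 0.5 of a probe's 9 repeat spots were brighter than the 95th percentile of the empty spots on that array. Mean brightness was 4.26 to 10.1 times that percentile for miR-497, 11.1 to 28.6 times for miR-103 and miR-107, 15.7 to 44.3 times for miR-15b, and at least 169 times for miR-16 and miR-195. These multiples describe each probe against its background and do not rank the miRNAs by abundance. All 5 striated muscle markers looked for (miR-499, miR-206, miR-1 and both forms of miR-133) were also detected on all arrays, which fits the tissue label. Between 149 and 204 miRNA probes were detected per array. Values below are log2 intensities after quantile normalisation between arrays, and 178 probes entered the limma test.

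After 7 days of suspension all 6 members had a lower mean than in controls, against 58.4% of the 178 tested probes. For miR-195 (-0.01 ± 0.08 in log2 fold change, SE) and miR-15b (-0.04 ± 0.33) the sign carries little information. It reversed in 5 of 24 alternatives for miR-195, in 6 for miR-15b and in 1 for miR-16. None of the 6 passed the adjusted threshold of 0.05, and neither did any other probe (0%). Among the 6 the largest differences were those of miR-107, 1.40-fold lower, and miR-103, 1.37-fold lower, and those 2 were the only members with an unadjusted limma p under 0.05, against 6.74% of all tested probes on the lower side, 7.3% on the higher side and 14% in all. The 7-day and control arrays did not overlap for miR-16, miR-103 and miR-107, each lower after suspension. Among all tested probes 12.4% were separated in that direction. After 2 days 5 of 6 members had a lower mean (60.1% of tested probes), none passed the adjusted threshold (0.562% of tested probes did), none had an unadjusted p under 0.05 (2.81% of tested probes on the lower and 3.93% on the higher side, 6.74% in all), and every member's 2-day arrays overlapped the controls (5.62% of tested probes were separated downward and 2.25% upward). Both comparisons use the same 3 control arrays.

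**Figure D1:**
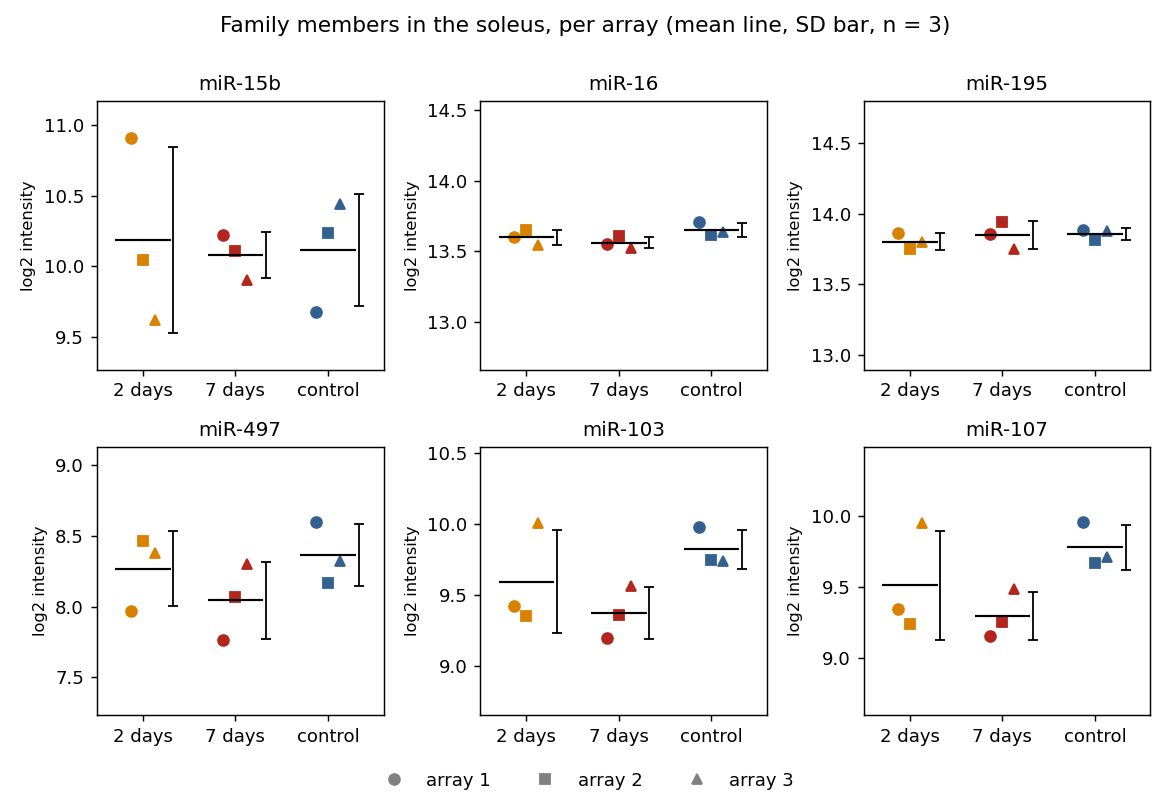
Log2 intensity of each member on each array (symbols mark arrays 1, 2 and 3), with the group mean as a line and the SD as a bar. The panels are centred on different values and all span the same height. MiR-103 and miR-107 lie lower on the 7-day arrays than on the control arrays, miR-16 and miR-195 hardly vary, and miR-15b spreads widely within groups.

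Under quantile normalisation miR-103 and miR-107, the pair tied to insulin sensitivity, had their lowest mean after 7 days. Their mean was intermediate after 2 days and highest in controls. The order held under cyclic loess and 75th percentile centring. With each array centred on its median, 7 days minus 2 days was 0.03 for miR-103 and 0.02 for miR-107. Without normalisation it was 0.10 for both, so under these 2 scalings the 2-day mean was lowest. For rno-miR-103 the log2 intensity was 9.42, 9.35 and 10.01 on 2-day arrays 1 to 3, 9.20, 9.36 and 9.57 on the 7-day arrays, and 9.98, 9.75 and 9.74 on the control arrays. For rno-miR-107 it was 9.35, 9.24 and 9.95 after 2 days, 9.15, 9.25 and 9.49 after 7 days, and 9.96, 9.67 and 9.71 in controls. Every 7-day array lay below every control array for both miRNAs, while 2-day array 3 stood with the controls. The other 2-day arrays lay among the 7-day values, for array 2 only with a dim spot counted: without it, it read 9.72 for miR-103 and 9.61 for miR-107, above every 7-day array. Neighbours in this order overlapped: 2 days with control, and 7 days with 2 days.

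The miR-103 mean was 9.37 ± 0.19 after 7 days and 9.82 ± 0.14 in controls (SD, n = 3 each), a log2 fold change of -0.45 ± 0.19 (SE; 95% interval -0.89 to -0.01; limma adjusted p = 0.332). The miR-107 mean was 9.30 ± 0.17 after 7 days and 9.78 ± 0.16 in controls, a log2 fold change of -0.48 ± 0.20 (95% interval -0.94 to -0.03; limma adjusted p = 0.320). These differences did not hold after adjustment over all tested probes. After 2 days the means were 9.59 ± 0.36 for miR-103 and 9.51 ± 0.38 for miR-107, with log2 fold changes against control of -0.23 ± 0.19 and -0.27 ± 0.20 (limma adjusted p = 0.913 for both). The 95% intervals at 2 days, -0.67 to 0.21 and -0.72 to 0.19, held the 7-day estimates. Without 2-day array 3 the 2-day values were -0.45 and -0.50, and without 2-day array 2 they were -0.11 and -0.14.

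**Figure D2:**
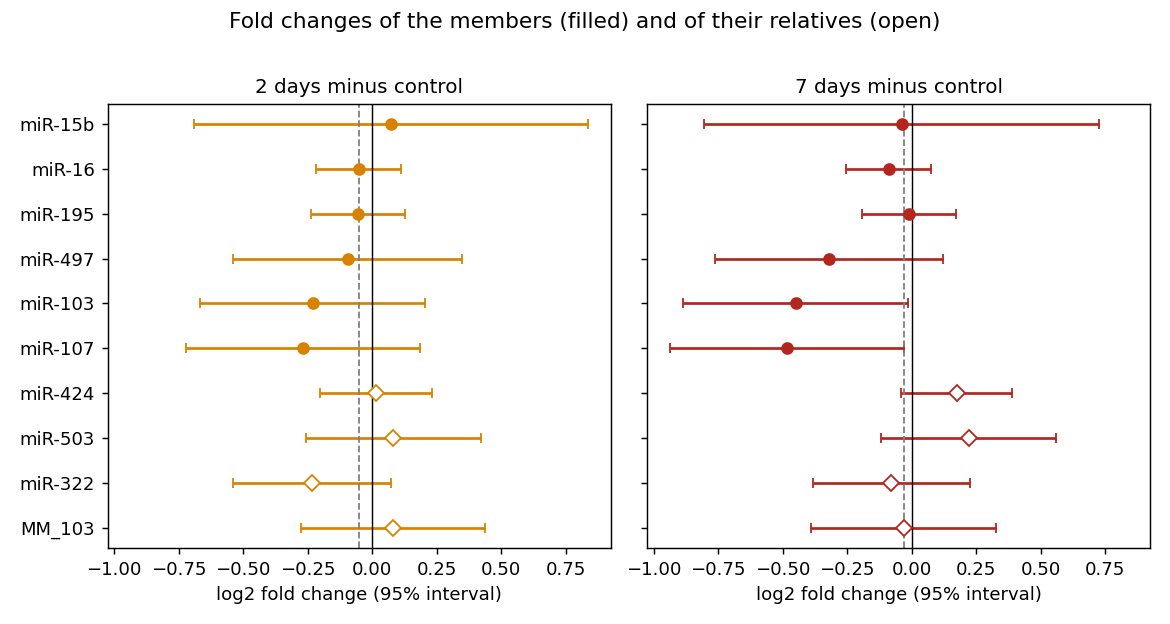
Log2 fold change of members (filled) and of relatives (open; miR-322 lacks the shared letters) after 2 days and after 7 days against control, with 95% intervals from the limma fit; the dashed line is the median of all tested probes. At 7 days the intervals of miR-103 and miR-107 end just below 0, and those of the other members include 0.

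Single dim spots lowered miR-103 and miR-107 on 2 of the arrays. On 2-day array 2 the miR-103 spot at array row 100, column 22 had a brightness of 94.2 against a median of 919 over its 9 spots, and the miR-107 spot at row 102 of that column had 81.3 against a median of 871. On control array 3 the miR-103 spot at row 14 of column 22 had 282 against 644, and the miR-107 spot at row 16 had 278 against 624. Both probes therefore had a dim spot in the same column, 2 rows apart, on each of these arrays. Low spots, under 0.5 of the probe's median, made up 2.18% of the spots of well detected probes on 2-day array 2, 0.622% on control array 3 and at most 0.699% elsewhere. With low spots left out, an alternative chosen after seeing the data, the 7-day log2 fold changes were -0.49 ± 0.16 for miR-103 and -0.53 ± 0.17 for miR-107 (limma adjusted p = 0.219 and 0.215), and the 2-day values were -0.15 ± 0.16 and -0.19 ± 0.17. Neither passed at either time.

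**Figure D3:**
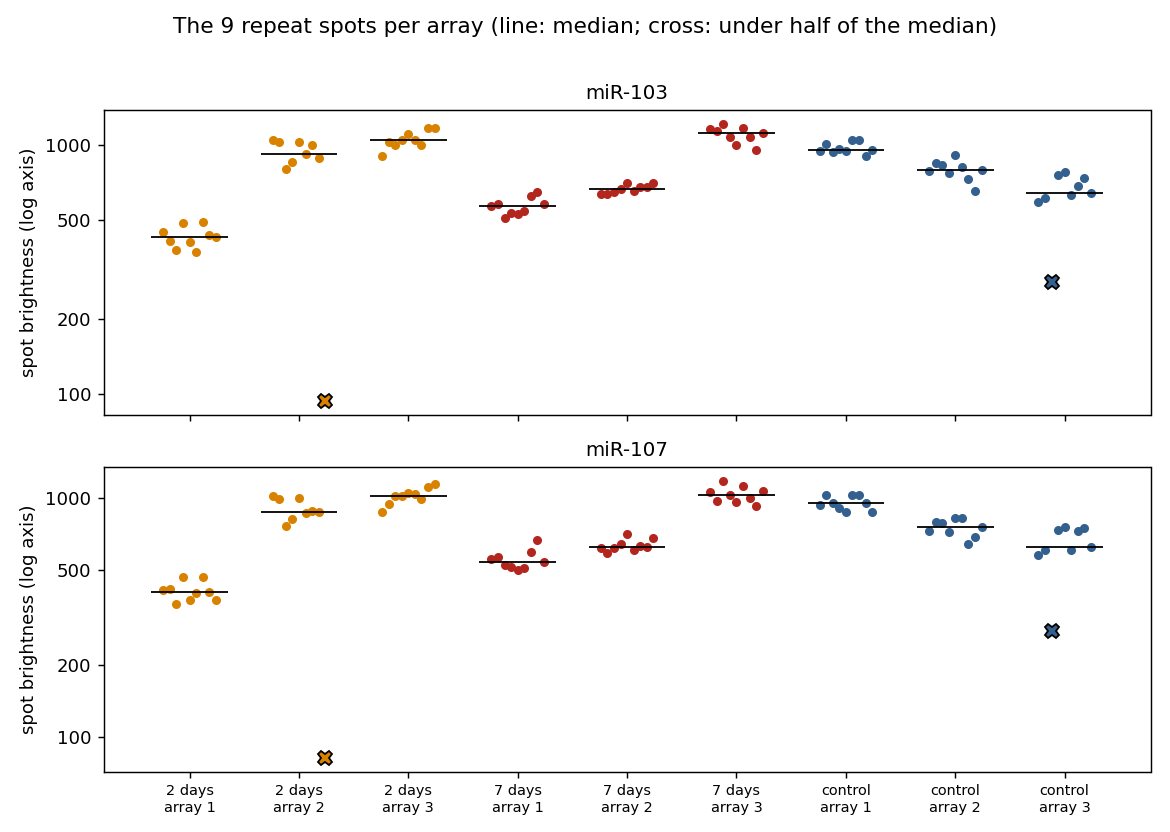
Brightness of the 9 repeat spots of miR-103 and miR-107 on each array before normalisation, on a log axis, with the median as a line and spots under 0.5 of it as crosses. The low spots sit on 2-day array 2 and control array 3, and before normalisation 7-day array 3 is as bright as any control array.

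Scaling between arrays set the size of the 7-day difference. Before any normalisation the median spot brightness of miR-103 was 566, 665 and 1111 on the 7-day arrays, against 952, 794 and 644 on the control arrays, and the groups overlapped. Without normalisation the 7-day log2 fold changes were -0.06 for miR-103 and -0.08 for miR-107, while the median of all tested probes stood at 0.14. Relative to that all-probe median, miR-103 was at -0.42 under quantile normalisation, -0.37 under cyclic loess and -0.20 when each array was shifted by a constant. The values for miR-107 were -0.45, -0.40 and -0.23. In the authors' value table, miR-103 read 496, 525 and 752 on the 7-day arrays, against 1037, 870 and 847 on the control arrays, and log2 fold changes from that table were -0.65 for miR-103 and -0.69 for miR-107. Over 24 alternatives the 7-day value kept its sign for both, with an unadjusted p under 0.05 in 14 for miR-103 and 15 for miR-107. The limma adjusted p ran from 0.134 to 0.961 and from 0.122 to 0.961.

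**Figure D4:**
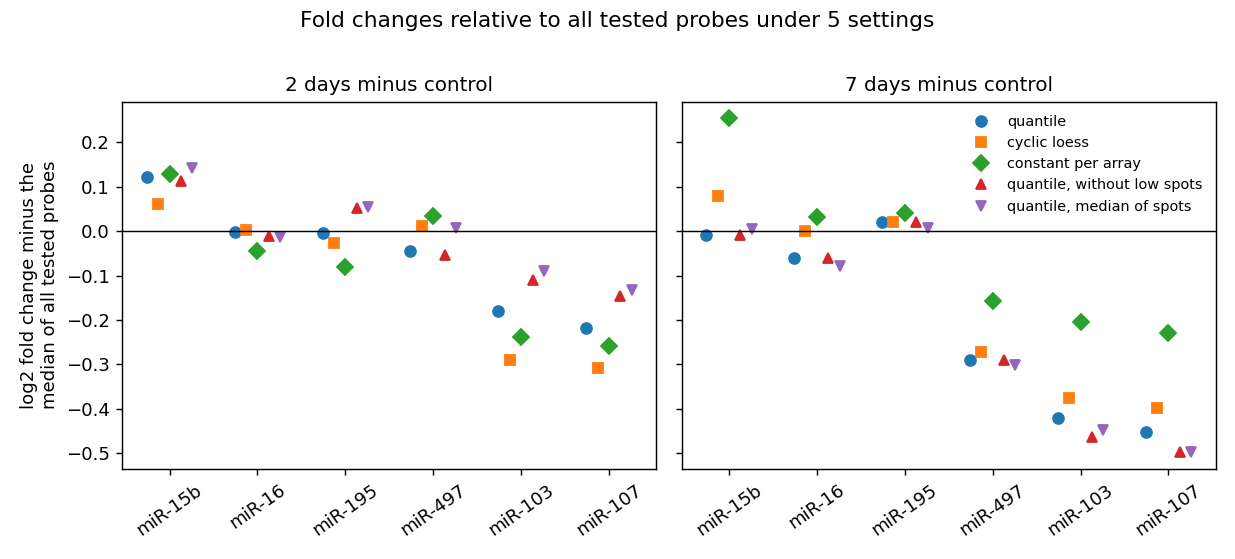
Log2 fold change of each member minus the median of all tested probes, at 2 days and at 7 days, under quantile normalisation, cyclic loess, a constant per array, and quantile normalisation without low spots or with the median of repeat spots. MiR-103 and miR-107 stay below 0 under each of these, with the smallest 7-day difference (-0.20 and -0.23) under a constant per array, and miR-15b runs from -0.01 to 0.25 at 7 days.

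The probe rno-miR-497, for the miRNA encoded beside miR-195, had values of 7.97, 8.46 and 8.38 on the 2-day arrays, 7.76, 8.07 and 8.30 on the 7-day arrays, and 8.60, 8.17 and 8.33 on the control arrays. Array 1 of the 2-day group and array 1 of the 7-day group were low, and the groups overlapped. Its log2 fold change was -0.32 ± 0.19 after 7 days (95% interval -0.76 to 0.12; limma adjusted p = 0.680) and -0.10 ± 0.19 after 2 days (adjusted p = 0.977). The 7-day value was -0.17 without 7-day array 1 and -0.20 without control array 1, and over all arrays left out in turn it ran from -0.44 to -0.17. It was the dimmest member against its background, and its 3 spots in the first array row read 0.662 to 0.995 of the brightness of its other 6.

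The rno-miR-195 probe itself measured 13.86, 13.75 and 13.80 on the 2-day arrays, 13.86, 13.94 and 13.75 on the 7-day arrays, and 13.89, 13.81 and 13.88 on the control arrays. All 9 values fell within a narrow band and the groups overlapped. The log2 fold change was -0.01 ± 0.08 after 7 days (95% interval -0.19 to 0.17) and -0.06 ± 0.08 after 2 days (-0.24 to 0.13). On 2-day array 2 a dim miR-195 spot read 4493, against a median of 15373 over the probe's spots. Without that spot the array read 13.94, and the 2-day log2 fold change was 0.01 ± 0.08.

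The probe rno-miR-16, for a widely expressed brake on cyclins, had 13.60, 13.65 and 13.54 on the 2-day arrays, 13.55, 13.61 and 13.52 on the 7-day arrays, and 13.70, 13.61 and 13.64 on the control arrays. The 7-day arrays lay just below the controls, by -0.09 ± 0.07 in log2 fold change (95% interval -0.25 to 0.07; limma adjusted p = 0.826), and the 2-day difference was -0.05 ± 0.07 (-0.22 to 0.11). Before normalisation the 7-day median brightness of miR-16 was 12678, 14084 and 12748, above the control values of 12162, 12182 and 11070, and without normalisation its log2 fold change was 0.18. The all-probe median also stood above 0 there, at 0.14, and the value kept its sign in the other 23 of 24 alternatives. Relative to all tested probes it was -0.06 under quantile normalisation, 0.00 under cyclic loess and 0.03 with a constant per array.

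The probe rno-miR-15b, for the partner of miR-16 in its cluster, varied most among the 6. It read 10.90, 10.04 and 9.62 on the 2-day arrays, 10.22, 10.11 and 9.90 on the 7-day arrays, and 9.67, 10.23 and 10.44 on the control arrays. The 2-day arrays alone covered the whole range of the other groups. Group means were 10.19 ± 0.66 after 2 days, 10.08 ± 0.16 after 7 days and 10.12 ± 0.40 in controls (SD, n = 3 each). The log2 fold changes were 0.07 ± 0.33 at 2 days and -0.04 ± 0.33 at 7 days, and the intervals, -0.69 to 0.84 and -0.80 to 0.73, leave room for differences in either direction that 3 arrays per group could not show.

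Differences between members within an array do not depend on a constant scaling of the array. Quantile normalisation is not a constant scaling, so the values here, taken after it, do depend on that step. Some changed sign under other scalings, as given in the section on processing. MiR-107 minus miR-103 was -0.08 ± 0.03 after 2 days, -0.08 ± 0.03 after 7 days and -0.04 ± 0.03 in controls (log2, SD, n = 3 each), so the 2 probes moved together over all arrays. For the miR-195 cluster, miR-195 minus miR-497 was 5.53 ± 0.32 after 2 days, 5.80 ± 0.33 after 7 days and 5.49 ± 0.19 in controls. Without 7-day array 1 the 7-day difference from control in this measure was 0.16, against 0.31 with all arrays. For the miR-15b cluster, miR-15b minus miR-16 was -3.41 ± 0.64, -3.49 ± 0.15 and -3.54 ± 0.44 in the same order of groups. The mean of miR-103 and miR-107 minus the mean of the other 4 was -1.91 ± 0.48 after 2 days, -2.05 ± 0.18 after 7 days and -1.70 ± 0.18 in controls. The 7-day difference of -0.35 in this last measure gave an exact two-sided permutation p of 0.1, the smallest that 3 arrays against 3 allow, and 0.72 after Benjamini-Hochberg adjustment over 12 comparisons. The other 11 comparisons had exact permutation p-values from 0.3 to 1. With 3 arrays per group this test could not have passed a threshold of 0.05, so it does not show whether the branches differ. The value of -0.35 kept its sign in 19 of 19 alternatives. These alternatives are not independent: all reuse the same arrays, and those that differ only by a constant per array give the same value by construction.

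**Figure D5:**
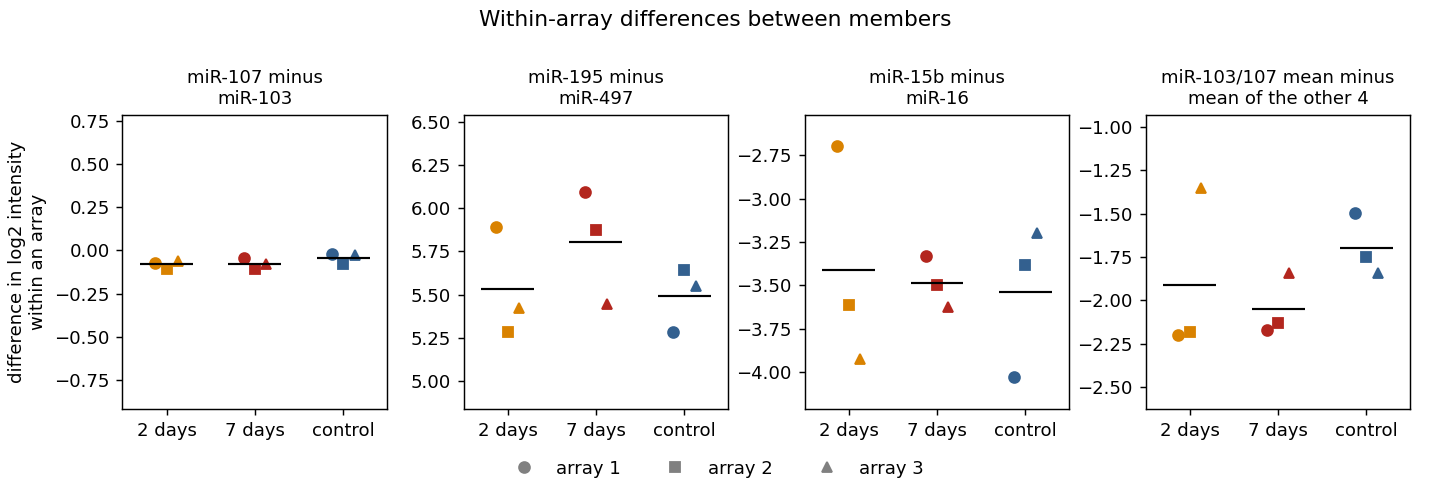
Differences in log2 intensity between members on the same array, by group, with the mean as a line and array numbers as symbols. The miR-107 minus miR-103 values stay within a narrow band on all 9 arrays, and in the last panel 7-day array 3 and control array 3 coincide at -1.84.

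No member passed the test between 7 and 2 days of suspension, a comparison that reuses the suspended arrays of the other 2. Log2 fold changes of 7 days against 2 days were -0.22 ± 0.19 for miR-103, -0.22 ± 0.20 for miR-107, -0.22 ± 0.19 for miR-497, -0.11 ± 0.33 for miR-15b, -0.04 ± 0.07 for miR-16 and 0.05 ± 0.08 for miR-195 (limma adjusted p = 0.948 for each). Without 2-day array 3 the values were -0.01 for miR-103 and 0.00 for miR-107, and without 7-day array 1 miR-497 was at -0.08. The 7-day mean was lower for 5 of 6 members, against 43.8% of tested probes. No member's arrays were separated (1.12% of tested probes were separated downward and 5.06% upward). No probe of the 178 passed this comparison after adjustment, and 10 (5.62%) had an unadjusted limma p under 0.05.

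Of the other probes holding AGCAGC within their first 8 bases, miR-424, miR-503 and a predicted miRNA, MM_103, were tested, and a second predicted one was detected on no array. MiR-424 and miR-503, which are made from 1 cluster and promote differentiation of mouse myoblasts, had higher means after 7 days than in controls. MiR-424 read 11.78, 11.70 and 11.85 on the 2-day arrays, 11.96, 11.87 and 11.97 on the 7-day arrays, and 11.60, 11.81 and 11.87 on the control arrays, a 7-day log2 fold change of 0.17 ± 0.09 (limma adjusted p = 0.547). Its 7-day arrays lay above all 2-day arrays (5.06% of tested probes were separated in that direction), by 0.16 ± 0.09 (adjusted p = 0.932). MiR-503 had a 7-day log2 fold change of 0.22 ± 0.15 (adjusted p = 0.729), and MM_103 was at -0.03 ± 0.15. Both were near the background. On control array 1 the mean brightness of miR-503 was 62.0, against 43.0 for the 95th percentile of the empty spots. MM_103 was detected on 2 arrays after 2 days, 3 after 7 days and 1 in controls. The probe named miR-322, the other arm of the miR-424 hairpin, lacks these letters and was at -0.08 ± 0.13. None of these passed at either time, and whether they differ from the members was not tested.

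Other miRNAs known to hold back proliferation, let-7 members, miR-34, miR-26, miR-24 and miR-145, had 13 tested of 15 on the array. After 7 days 9 of the 13 were lower and 4 higher (median -0.06, against -0.03 for all tested probes), and after 2 days 4 were lower and 9 higher (median 0.03, against -0.05). None passed the adjusted threshold. MiR-26b, whose close relative miR-26a targets the histone methyltransferase Ezh2 in mouse myoblasts, had 7-day values of 14.23, 14.15 and 14.04, against 13.87, 13.74 and 13.75 in controls, with no overlap (11.2% of tested probes were separated upward) and a log2 fold change of 0.35 ± 0.11 (limma adjusted p = 0.235). MiR-98, a let-7 relative, was at 0.49 ± 0.21 (adjusted p = 0.332). Of the metabolic miRNAs outside the family 6 were tested of 8 on the array, 3 lower and 3 higher after 7 days with a median of 0.00, and none passed.

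Some markers of other cell types also had lower means after 7 days. The 4 smooth muscle and fibroblast markers were all detected on every array and all had lower 7-day means (median -0.52): miR-145 at -0.52 ± 0.19 and miR-214 at -0.52 ± 0.19 (limma adjusted p = 0.277 for both), miR-199a at -0.61 ± 0.39 and miR-143 at -0.09 ± 0.11. The log2 level summed over these 4 markers ran between 13.80 and 14.14 after 2 days, between 13.72 and 13.99 after 7 days, and between 14.05 and 14.29 in controls. Of the 6 blood cell markers 3 were tested, with miR-451 of red cells at -0.92 ± 0.35 after 7 days (limma adjusted p = 0.283), miR-223 of myeloid cells at -0.24 ± 0.42 and miR-150 of lymphocytes at 0.07 ± 0.19. The summed log2 level of the blood list was 12.68 to 13.19 after 2 days, 12.88 to 12.96 after 7 days and 12.85 to 13.20 in controls. Control arrays 1 to 3 read 10.74, 9.53 and 9.37 for miR-199a and 10.49, 9.65 and 9.47 for miR-451. The lower 7-day means of these 2 markers therefore lean in part on control array 1. Endothelial miR-126 was at 0.00, and the striated muscle markers had a median of -0.08. Among these, miR-1 and miR-206 had the same SD in each group: 0.005 after 2 days, 0.021 after 7 days and 0.009 in controls. Quantile normalisation gives every array the same set of values, which holds such bright probes nearly fixed. MiR-1 and miR-206 could therefore hardly move, and the median does not show that the muscle signal was steady. Of the 3 nerve markers only miR-128a was tested, at -0.10. MiR-9 was detected on 1 control array only, and miR-124a on 1 array after 7 days and 2 in controls. The miR-128a signal therefore cannot be read as nerve from this list. The part of these markers in the miR-103 and miR-107 values was not tested, and in whole muscle fewer cells of a type and less miRNA per cell cannot be told apart.

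The probes whose pattern over the 9 arrays was most like the mean of miR-103 and miR-107 were miR-140* (Pearson r = 0.877), miR-145 (0.851), miR-93 (0.801), miR-106b (0.785) and miR-324-5p (0.749). Their 7-day log2 fold changes were -0.60, -0.52, -0.29, -0.22 and -0.19 in that order. For the mean of the other 4 members the nearest were miR-494 (0.867), let-7b (0.677), miR-200c (0.666), miR-543 (0.651) and miR-134 (0.647), with 7-day log2 fold changes from -0.23 to -0.06. Within groups the SD reached 0.66 for miR-15b and 0.27 for miR-497, against 0.06 for miR-16 and 0.10 for miR-195. The mean of the 4 therefore follows miR-15b and miR-497 more than miR-16 and miR-195. These likenesses are descriptions over 9 arrays that share normalisation and brightness range, and the 5 nearest of 178 probes will look alike in part by selection.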

How the data were processed

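Small RNA was extended with a poly(A) tail, tagged, stained with Cy5 and hybridised to chips made with rat miRBase 9.0 probes, per the labels' protocols. The deposited scanner files hold mean spot brightness (intensity) on a linear scale, per the file headers; another deposited table holds the authors' whole-number intensity values for 162 probes. Which image software was used, and whether it corrected the background, is not given in the sources used here. All of what follows was computed here in R 4.3.3 with limma 3.58.1. Brightness was corrected with normexp (offset 50, all 3968 spots), control spots were left out, log2 values were quantile normalised, and 9 repeat spots were averaged. The test (lmFit and eBayes, all 9 arrays, 1 mean for each group) took the 178 of 334 probes that some group had detected on each of its arrays. Benjamini-Hochberg adjustment ran over these 178. The number of arrays limits the precision, with a median standard error of 0.166 in log2 units. The limma fit was tested on simulated log2 values with changes larger than those of any member. That simulation did not cover background correction, normalisation, detection or the averaging of spots. Within-array differences used exact permutation tests. All members were named, with relatives sharing bases 2 to 7 of the miR-16 sequence in their first 8 bases, miR-322 by name, the 5 probes nearest in pattern, and marker lists. Members and lists were chosen with earlier results of these data known. Alternatives covered background, normalisation, filters, repeat spots, array weights, the authors' table, the replicate block and leaving out each array.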

Additional observations from a re-analysis of the deposited data

Results flagged for a closer look

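Among the control spots, the probe named a-PUC2MM2d, with 4 spots per array, read 22.4%, 27.3% and 2.31% of the median brightness of a-PUC2PM on the 2-day arrays and 26.0%, 27.6% and 26.3% on the 7-day arrays, against 14.3%, 1.88% and 1.57% on the control arrays. It drew attention because every 7-day array lay above every control array in spots that no comparison uses. The probe named PUC2MM, with 16 spots, read 78.5% to 88.9% of PUC2PM on the 2-day arrays, 80.2% to 87.8% on the 7-day arrays and 76.0% to 80.0% on the control arrays, and was noted for the same reason, though its lowest 7-day array and its highest control array were nearly equal. What these names stand for is not given in the sources used here, and the difference between groups was not tested. Members' values use these spots only through the background fit over all spots.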

How the results depend on the processing

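No member passed the adjusted threshold under any of 24 alternatives in any comparison. Same-numbered arrays did not deviate together: correlations ran from -0.40 to 0.35, 3 of 9 pairs were over 0.1, and 3 of 9 arrays correlated best with their own number. With the replicate block no call changed (0 members called), and the 7-day log2 fold changes were -0.45 for miR-103 and -0.48 for miR-107 (limma adjusted p = 0.387 and 0.385). The values below changed sign or moved, and their causes were not tested. Values are log2 fold changes, or differences in a within-array log2 difference.

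With median centring the members' median was -0.21 at 2 days and 0.049 for 7 against 2 days, miR-15b was at -0.020 (2 days), 0.099 (7 days) and 0.12 (7 against 2 days), and for 7 against 2 days miR-16 was at 0.071, miR-103 at 0.027 and miR-107 at 0.023. With 75th percentile centring the members' median was -0.33 at 7 days and miR-195 was at -0.079 for 7 against 2 days. Without normalisation the members' median was 0.010 at 2 days, 0.082 at 7 days and 0.13 between them. MiR-497 was then at 0.11 and miR-16 at 0.028 (2 days), miR-15b at 0.40, miR-16 at 0.18 and miR-195 at 0.19 (7 days), and for 7 against 2 days miR-15b was at 0.20, miR-16 at 0.15, miR-103 at 0.10 and miR-107 at 0.10. Under each of these 3 scalings miR-107 minus miR-103 was at -0.0035 and miR-15b minus miR-16 at 0.048 for 7 against 2 days, and miR-195 minus miR-497 at -0.11 at 2 days.

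Under cyclic loess miR-497 was at 0.00080 at 2 days, miR-15b at 0.033 at 7 days and the members' median at -0.079 for 7 against 2 days. The within-array differences were -0.0039 for miR-107 minus miR-103 and 0.020 for miR-15b minus miR-16 (7 against 2 days), and -0.038 for miR-195 minus miR-497 (2 days). With the median of repeat spots miR-195 was at 0.011 at 2 days and -0.032 for 7 against 2 days, and miR-107 minus miR-103 at -0.0050. Without low spots miR-195 was at 0.011 and -0.020 in these comparisons. In the authors' value table, without and with a pseudocount of 50, the members' median was -0.0032 in both at 2 days, and -0.25 and -0.23 for 7 against 2 days. MiR-195 was at 0.011 in both at 2 days and -0.036 in both for 7 against 2 days, and miR-497 at 0.013 in both at 2 days. MiR-107 minus miR-103 was at -0.011 and -0.0098 for 7 against 2 days, miR-195 minus miR-497 at -0.0023 in both at 2 days, and miR-15b minus miR-16 at -0.0054 and -0.0039 at 7 days. With array weights miR-497 was at 0.062 and miR-15b at -0.28 at 2 days, miR-195 at 0.022 at 7 days, and miR-15b at 0.16 for 7 against 2 days.

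Leaving out each array in turn, miR-15b ran from -0.27 to 0.36 at 2 days, -0.27 to 0.12 at 7 days and -0.40 to 0.24 between them, and miR-497 from -0.19 to 0.054 at 2 days. MiR-195 ran from -0.056 to 0.042 at 7 days and from -0.00033 to 0.098 for 7 against 2 days, where miR-107 ran from -0.36 to 0.00078 and the members' median from -0.17 to -0.041. The within-array differences that crossed 0 were miR-107 minus miR-103 (-0.012 to 0.019, 7 against 2 days), miR-195 minus miR-497 (-0.14 to 0.16, 2 days), miR-15b minus miR-16 (-0.22 to 0.39 at 2 days, -0.20 to 0.22 at 7 days, -0.33 to 0.27 between them) and the branch difference (-0.28 to 0.14, 7 against 2 days). Ranges that kept their sign were -0.44 to -0.17 for miR-497 and 0.16 to 0.49 for miR-195 minus miR-497 at 7 days, and -0.35 to -0.015 for miR-103 and -0.38 to -0.079 for miR-497 for 7 against 2 days. The wide spread of miR-15b limits the precision of its values, with an SE of 0.33 at 7 days. MiR-497, though dimmest against its background, had an SE of 0.19, near those of miR-103 (0.19) and miR-107 (0.20). Whether its dim signal limits its precision was not tested.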
